A study of Homo sapiens with 12 samples.

Results

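In 6 libraries of mock-treated hepatoma cells, 77 annotated genes were almost without counts, and in the 6 matching libraries of arsenite-treated cells each of them was counted. These rows of the gene count table were chosen by their counts alone: a sum of 10 or less over the 6 mock libraries and of 40 or more over the 6 arsenite libraries. They are 77 of 61255 rows. With the treatments exchanged, the same thresholds were met by 4 rows. Because the choice rests on the arsenite and mock counts, the difference between treatments in the 77 rows is given as a description, with no test. The values that the choice did not use are the classes of the genes, the genes that lie beside them, the counts of those neighbours and the split of the arsenite counts among the cell lines.

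The libraries came from Huh-7.5, an established hepatocellular carcinoma line, engineered to express the peroxidase APEX2 in 3 forms. APEX-NES carries a nuclear export signal, APEX-NLS a nuclear localisation signal, and APEX-G3BP1 is fused to G3BP1, a core protein of the stress granule. The lines were sequenced with mock treatment or with sodium arsenite (0.5 mM, 45 minutes), with 2 libraries per line and treatment and 12 in all. All 6 groups carry an APEX2 transgene, so no group is the unmodified parent line, and whether a line is a single clone is not stated in the labels. The labels do not say whether libraries of a group came from separate cultures, so p-values measure the spread between these libraries, which may be technical. Total RNA was depleted of ribosomal RNA and prepared with a strand-preserving kit.

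Arsenite is a thiol-reactive poison that damages proteins, blocks translation initiation and drives messenger RNA into stress granules, and it induces immediate early, heat shock, metal and oxidant response genes. RNA polymerase II normally releases its transcript after it has passed the polyadenylation signal at the 3′ end of a gene. Heat, osmotic and oxidative stress are known to let polymerase run on at many genes, and the RNA then made beyond the gene's end is called readthrough or downstream-of-gene RNA. This is background and not a result of the counts below.

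For 31 of the 77 genes, a RefSeq promoter window was at hand, reaching from 250 bases before to 50 after the transcription start (GRCh38.p14). Since the rows were counted together after a stress, the windows were searched on both strands for 4 stress elements and for the TATA box. The windows of 3 genes described below, each with a match to a stress element, are shown, in lower case with the match in capitals. They are MFAP1 (chr15:43824641-43824940, minus strand) with a heat shock element core (GAANNTTC), TTC24 (chr1:156579473-156579772, plus strand) with an AP-1-like pattern (TGANTCA) and HCG14 (chr6:28896280-28896579, plus strand) with a cyclic AMP response element (TGACGTCA). The AP-1-like pattern leaves its middle base free, so a match need not be an AP-1 site.
MFAP1: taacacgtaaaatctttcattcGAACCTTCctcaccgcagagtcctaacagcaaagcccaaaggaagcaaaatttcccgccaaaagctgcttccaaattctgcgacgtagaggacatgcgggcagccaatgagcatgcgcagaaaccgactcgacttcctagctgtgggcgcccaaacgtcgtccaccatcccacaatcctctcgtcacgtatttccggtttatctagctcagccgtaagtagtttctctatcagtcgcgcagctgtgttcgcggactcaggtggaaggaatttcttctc
TTC24: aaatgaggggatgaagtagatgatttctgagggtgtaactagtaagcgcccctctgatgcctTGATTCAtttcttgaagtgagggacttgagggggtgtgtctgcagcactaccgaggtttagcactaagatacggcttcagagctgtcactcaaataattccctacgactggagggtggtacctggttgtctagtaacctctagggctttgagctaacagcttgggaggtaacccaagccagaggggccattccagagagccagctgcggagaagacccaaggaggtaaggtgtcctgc
HCG14: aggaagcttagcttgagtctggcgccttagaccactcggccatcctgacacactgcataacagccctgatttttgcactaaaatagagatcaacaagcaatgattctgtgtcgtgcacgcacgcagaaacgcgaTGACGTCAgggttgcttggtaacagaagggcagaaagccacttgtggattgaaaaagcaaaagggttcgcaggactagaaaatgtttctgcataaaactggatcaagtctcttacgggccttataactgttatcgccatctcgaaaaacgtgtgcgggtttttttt

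The heat shock element core was in 3.23% of the 31 windows and in 6.87% of all 27305 promoters. The antioxidant response element core (TGACNNNGC) was in 12.9% against 13.6%, and the AP-1-like pattern in 6.45% against 7.76%. A cyclic AMP response element was in 3.23% of the windows, which is 1 window, against 1.98% of all promoters. Of the tail-to-tail genes described below, 52 had a window, and 5 of those windows (9.62%) held it. In the windows of those genes the AP-1-like pattern was in 1.92%, the heat shock element core in 3.85% and the TATA box in 3.85%, each below its share of all promoters. The antioxidant core was in 13.5%. These differences were not tested. The TATA box (TATAAA) was in 12.9% against 11.95%. The AP-1-like pattern and the antioxidant element can share letters. A match says only that the letters are present in the window.

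Total counts per library were 1090308 to 1358372 in mock and 1170783 to 1461067 in arsenite, so a floor of 3 counts corresponds to 2.05 to 2.75 CPM (counts scaled to a common library size). Replicate 2 of NES arsenite and replicate 2 of NLS arsenite held 1506 and 864 counts in rows that lie in 18S ribosomal RNA copies, and the other 10 libraries held 5 to 78. Of 13 hepatocyte markers, 8 had 10 or more counts in some library, and APOH was at 0 throughout. Their summed counts per library were 202 to 336 in mock and 273 to 433 in arsenite. Fibroblast or stellate markers summed to 55 to 68 in mock and 101 to 157 in arsenite. The cholangiocyte markers, with KRT7 at 0, summed to 11 to 19 and 8 to 25, the endothelial markers, with VWF at 0, to 0 to 14 and 3 to 10, and the immune markers to 24 to 32 and 15 to 27. The part of these marker levels in the results below was not tested.

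The strand that the counts of a row stand for is not given in the sources used here. At MALAT1 and FTH1, nearly all counts lay in the row annotated on the opposite strand. Whether the whole table is counted in this way was not tested. TALAM1, annotated antisense to the abundant nuclear RNA MALAT1, had 44233 to 81932 counts per library, and MALAT1 itself had 16 to 37. The ferritin heavy chain gene FTH1 was at 11 to 34 counts, while BEST1 on its opposite strand was at 11497 to 18070. The G3BP1 row held 1 to 23 counts per library and therefore gives no check of the G3BP1 fusion. A gene name here, the marker genes above included, names an annotated interval and strand, and the protein or RNA it encodes is given as background only.

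The 77 rows went from scattered single counts in mock to counts in every arsenite library. They held 63 to 105 counts together in a mock library, or 0.00578% to 0.00773% of its counts. In an arsenite library they held 626 to 882, or 0.0465% to 0.0614%. Between 43 and 59 of them had any count in a given mock library, and all 77 had at least 1 count in each of the 6 arsenite libraries. At least 3 counts in each arsenite library were reached by 73. The median row had a mock sum of 8 and an arsenite sum of 49, with arsenite sums from 40 to 120. The highest count of any of the rows in any mock library was 5. In bulk libraries, more cells that hold an RNA and more of it per cell cannot be told apart.

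**Figure D1:**
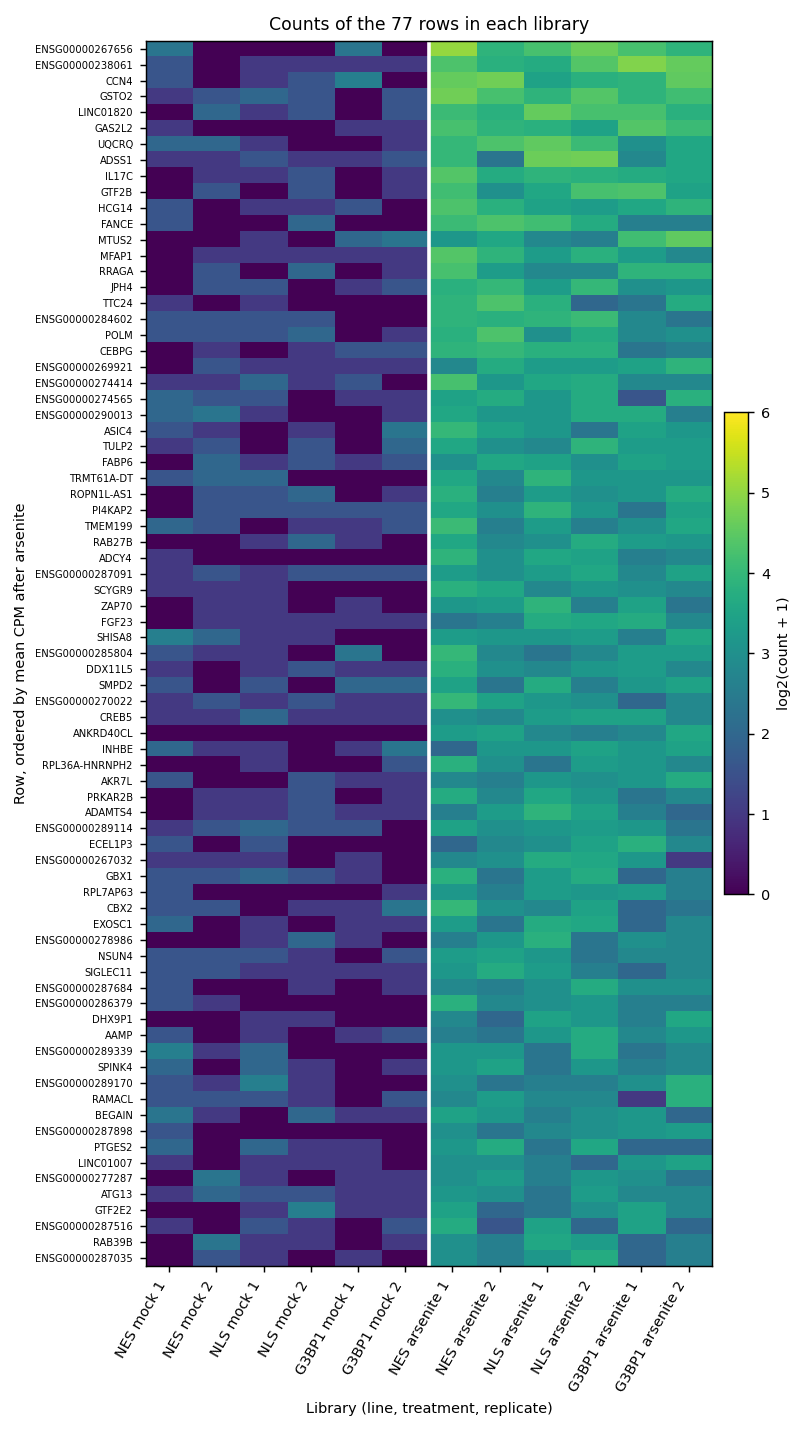
Counts of the 77 rows (vertical axis, ordered by mean CPM after arsenite) in the 12 libraries (horizontal axis), with colour giving log2(count + 1). The 6 mock libraries on the left stay at 5 counts or fewer, and the 6 arsenite libraries on the right are counted in every row.

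In 59 of the 77 rows every arsenite library lay above every mock library, and in 18 the counts of the treatments overlapped. Over all 13108 rows that passed the filter on low counts, 6.0% separated in this way. The edgeR quasi-likelihood test called 19.4% of the 13108 higher after arsenite and 18.6% lower, which is 38.0% in either direction. Of the 77 rows, 37 passed the filter, all through their arsenite libraries, and all 37 were among the rows called higher. Nothing is read from these shares, because the thresholds that chose the rows used the same counts. The other 40 rows stayed too low for the model.

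By class, the rows were mostly protein-coding genes. GENCODE release 29 lists 67 of the 77, and 44 of the 77 were protein-coding (57.1%), against 48.6% of the tested rows and 32.4% of all rows. Another 12 were long non-coding RNAs (15.6%), against 28.8% of the tested rows and 23.96% of all. Pseudogenes gave 10 rows (12.99%), against 13.8% and 24.7%, and 1 carried the annotation TEC, a locus not yet assigned to a class. The remaining 10 rows carried only an Ensembl identifier that release 29 does not hold, and they have no class or position here. The exons of the 67 genes spanned a median of 2768 bases, against 2564 in the tested rows and 1028 in all annotated rows.

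Most of the 67 placed genes had the end of another gene on their 3′ side. For 45 of them (67.2%), a protein-coding gene on the opposite strand ended within 10 kb of an exon on that side, so that the 2 genes met tail to tail. In 43 of the 45 that gene lay wholly past the member's outer end; GLA lies between exons of RPL36A-HNRNPH2, and BAG1 overlaps the last part of SPINK4. Within the same distance this held for 37.4% of the 12376 other tested rows and for 16.1% of the 56902 other annotated rows. The share among the members was 44.8% within 5 kb, 86.6% within 20 kb and 94.0% within 50 kb, against 29.7%, 45.2% and 55.7% of the other tested rows. The median distance was 5.59 kb in the members, 30.4 kb in the other tested rows and 119 kb in all other rows. This arrangement was looked for after the members' values had been seen, and the shares are descriptions with no test. The distances given with single members below are to the tail-to-tail gene, which is not always the nearest gene.

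The other 3 arrangements differed less. A gene on the opposite strand that started within 10 kb of an exon, on its 5′ side (head to head), was present for 21 members (31.3%), against 24.2% of the other tested rows. On the same strand, a gene ended within 10 kb upstream of an exon in 11 members (16.4%), against 18.02%. On the same strand, a gene started within 10 kb downstream of an exon in 17 members (25.4%), against 15.2%. Members seldom had an exon overlapping the span, introns included, of a protein-coding gene on the opposite strand. That held for 10 of 67 (14.9%), against 59.0% of the other tested rows. Whether exons of both genes overlap was not examined. The nearest gene of all 4 arrangements was the tail-to-tail one for 33 members (49.3%), against 35.4% of the other tested rows, and the head-to-head one for 19 members (28.4%), against 26.9%. The share of exon overlap is partly fixed by the choice of rows, since a row that collects counts of an opposite gene in mock could not be chosen.

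**Figure D2:**
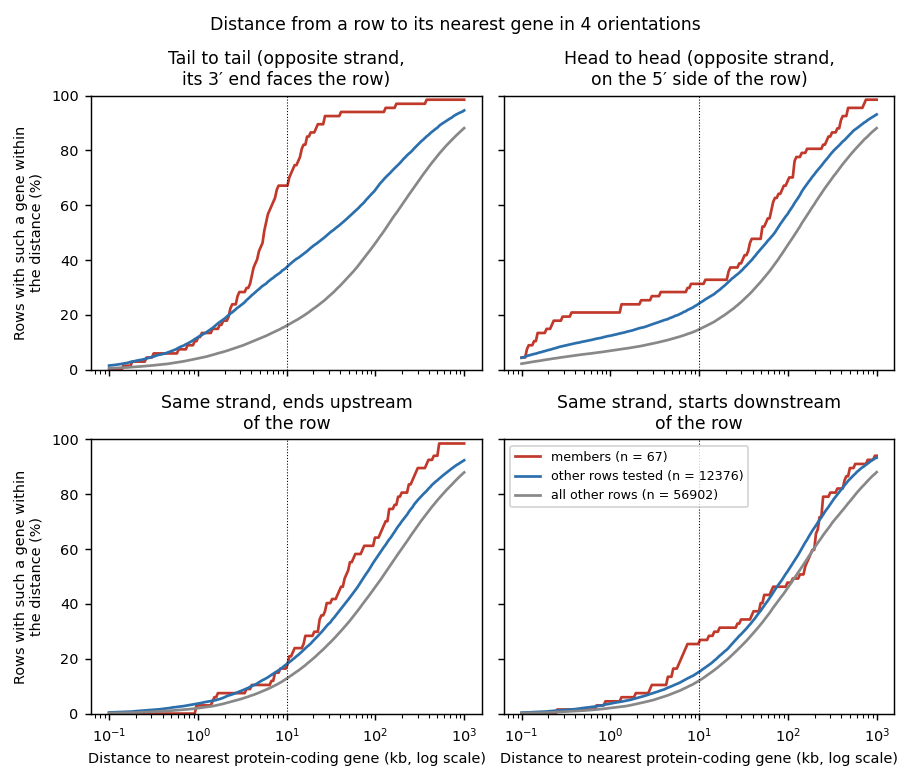
Cumulative share of rows (vertical axis, %) with a protein-coding gene within a given distance (horizontal axis, kb, log scale) in 4 arrangements, for the 67 members, 12376 other tested rows and 56902 other rows. The curve of the members leaves the others between 2 and 20 kb in the tail-to-tail panel, where 67.2% of members have such a gene within 10 kb (dotted line).

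The 2 rows with the most counts after arsenite were processed pseudogenes, that is, copies of messenger RNAs inserted elsewhere in the genome. ENSG00000267656 (chr18:13139780-13140489, minus strand) had mock counts of 4 and 0 (NES), 0 and 0 (NLS) and 4 and 0 (G3BP1). After arsenite it had 32 and 14 (NES), 18 and 24 (NLS) and 18 and 14 (G3BP1), a mean of 15.3 ± 4.21 CPM (SD, n = 6). Every arsenite library was above every mock library. The nearest tail-to-tail gene was CEP192, a centrosome protein, whose 3′ end lay 14.7 kb away. A second pseudogene further along the same stretch, ENSG00000267032 (chr18:13151637-13152689), lay 26.6 kb from the end of CEP192 and was also a member. Its counts were 0 or 1 in every mock library and 6, 7, 12, 11, 8 and 1 after arsenite, so that G3BP1 replicate 2 overlapped the mock libraries. CEP192 was the single gene that served 2 members as tail-to-tail neighbour, so these 2 rows share their surroundings.

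ENSG00000238061 (chr1:185280844-185281816, plus strand) had 0 to 2 counts in the mock libraries. With arsenite the counts were 19 and 13 (NES), 12 and 20 (NLS) and 28 and 23 (G3BP1), a mean of 15.04 ± 5.33 CPM (SD, n = 6). The groups did not overlap, and both G3BP1 libraries were above the other 4. Its tail-to-tail neighbour was IVNS1ABP, an actin-binding kelch protein, at 14.6 kb.

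Among the long non-coding RNAs, LINC01820 and HCG14 had the highest levels per exon length of the rows named by level. LINC01820 (chr2:46392297-46394167, minus strand) had 0 to 3 counts in mock. Its arsenite counts were 16 and 13 (NES), 23 and 18 (NLS) and 18 and 13 (G3BP1), or 13.1 ± 2.75 CPM (SD, n = 6) and 23.0 CPM per kb of exon. It lies 5.59 kb past the end of EPAS1, which encodes the hypoxia-inducible factor HIF-2 alpha. HCG14 (chr6:28896530-28897322, plus strand), a non-coding gene of the HLA region, had 0 to 2 counts in mock and 19 and 13, 10 and 9, and 11 and 14 after arsenite in NES, NLS and G3BP1. Its level was 9.90 ± 2.70 CPM (SD, n = 6) and 23.97 CPM per kb. It lies 5.68 kb past the end of TRIM27, a ubiquitin ligase. In both rows all arsenite libraries were above all mock libraries. Over the 67 placed members the level after arsenite ran from 0.534 CPM per kb in CREB5 to 36.8 CPM per kb in ROPN1L-AS1. The latter lies 0.902 kb past the end of the ubiquitin ligase gene MARCHF6 and has an exon overlapping the span of ROPN1L.

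The other 3 placed non-coding rows that were named by level without exon overlap had lower levels. ENSG00000284602, annotated as the partner of a bidirectional promoter, starts 0.084 kb from SYF2 head to head and lies 7.46 kb from the end of RSRP1. It had 0 to 2 counts in mock and 4 to 16 (median 13.5) after arsenite. ENSG00000269921 lies 0.117 kb from AASDH head to head and 5.21 kb from the end of PPAT, an enzyme of purine synthesis, and went from 0 to 2 counts in mock to 6 to 14 (median 9.5). ENSG00000274414 lies 12.3 kb from ENTPD6 and had 0 to 3 counts in mock and 6 to 18 (median 9.5) after arsenite. None of these 3 overlapped between treatments. ENSG00000274565 lies 10.96 kb from TLK2 and has an exon overlapping the span of MRC2. It had 0 to 3 counts in mock and 2 to 13 (median 11) after arsenite, so it did overlap. ENSG00000290013, 1 of the 10 rows without a class or position, had 0 to 4 counts in mock and 5 to 12 (median 9.5) after arsenite.

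CCN4 (chr8:133191039-133231690, plus strand), a secreted matrix protein induced by Wnt signalling, had mock counts of 2, 0, 1, 2, 5 and 0. Its counts after arsenite were 23 and 25 (NES), 10 and 13 (NLS) and 14 and 22 (G3BP1), or 14.1 ± 5.52 CPM (SD, n = 6). The lowest arsenite library was still above the highest mock library. It lies 5.48 kb from the end of NDRG1, a gene known for its response to hypoxia and metals.

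GSTO2 (chr10:104268873-104304945, plus strand), an omega-class glutathione transferase, had mock counts of 1, 2, 3, 2, 0 and 2. Its arsenite counts were 25 and 18 (NES), 14 and 20 (NLS) and 14 and 17 (G3BP1), or 13.9 ± 2.62 CPM (SD, n = 6). All arsenite libraries lay above mock. Its tail-to-tail gene was ITPRIP at 4.75 kb, and its relative GSTO1 on the same strand ended 1.41 kb upstream.

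GAS2L2 (chr17:35744511-35752878, minus strand), a linker of actin and microtubules, had 0 or 1 count in each mock library. After arsenite it had 18 and 14 (NES), 13 and 10 (NLS) and 20 and 16 (G3BP1). The groups were far apart, but a GAS2L2 exon overlaps the span of TAF15 on the opposite strand, and GAS2L2 lies 0.990 kb from the end of RASL10B. UQCRQ (chr5:132866560-132868031, plus strand), a subunit of respiratory complex III, had 0 to 3 counts in mock and 7 to 22 (median 15.5) after arsenite. It lies 7.35 kb from the end of AFF4, a scaffold of the super elongation complex of polymerase II, and has an exon overlapping the span of GDF9. Counts of such overlapping genes are uncertain.

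IL17C (chr16:88638591-88640473, plus strand), a cytokine of epithelial cells, had 0 to 2 counts in mock. Its arsenite counts were 20 and 12 (NES), 14 and 13 (NLS) and 12 and 11 (G3BP1), or 10.6 ± 1.998 CPM (SD, n = 6). Every arsenite library was above mock and the 3 lines were close to each other. It lies 2.81 kb from the end of CYBA, a subunit of NADPH oxidase. GTF2B (chr1:88852932-88891944, minus strand), the general transcription factor TFIIB, had 0 to 2 counts in mock and 17 and 7, 11 and 18, and 19 and 10 after arsenite. Its replicates differed as much as its lines did, and its tail-to-tail gene PKN2, a protein kinase, ended 16.7 kb away.

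MFAP1, a spliceosome protein, had 0 or 1 count in mock and 6 to 20 (median 11) after arsenite. Its tail-to-tail gene HYPK ended 1.45 kb away. RRAGA, a Rag GTPase that signals amino acid supply to mTORC1, had 0 to 3 counts in mock and 6 to 18 (median 11.5) after arsenite. It lies 2.16 kb from the end of HAUS6 and 0.037 kb from SAXO1 head to head. JPH4, a junctophilin, had 0 to 2 counts and 7 to 15 (median 11), 7.76 kb from THTPA. TTC24, a tetratricopeptide repeat protein, had 0 or 1 count and 3 to 19 (median 12.5), 7.72 kb from GPATCH4. These 4 genes had no overlap between treatments. MFAP1 and TTC24 are 2 of the 3 genes whose promoter windows are printed above.

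POLM, a DNA polymerase of end joining, had 0 to 3 counts in mock and 6 to 19 (median 9.5) after arsenite, 2.79 kb from DBNL. CEBPG, a bZIP transcription factor that pairs with ATF4, had 0 to 2 counts in mock. With arsenite the counts were 14 and 15 (NES), 13 and 13 (NLS) and 4 and 5 (G3BP1), so that both G3BP1 libraries were the lowest of the 6. It lies 4.26 kb from the end of PEPD, a prolidase. The other 53 members were counted at 5.05 to 7.21 CPM after arsenite.

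Some of those 53 were picked after their values were seen. ANKRD40CL (chr17:50761029-50767557, minus strand) was the single member at 0 in all 6 mock libraries. Its counts were 9 and 10 (NES), 6 and 5 (NLS) and 6 and 11 (G3BP1) after arsenite, a sum of 47, and was at least 14.4-fold higher than a floor of 3 counts over the mock libraries. It lies 4.82 kb from the end of the splicing factor gene LUC7L3. TULP2, a tubby-like protein, went from 0 to 3 counts to 6 to 14 (median 9) and lies 4.91 kb from the end of PPP1R15A, the stress-induced phosphatase subunit GADD34. Genes known for one tissue were also present: ZAP70, a T cell kinase, went from a mock sum of 3 to 50, FGF23, a bone hormone, from 5 to 50, and SIGLEC11, a receptor of macrophages, from 8 to 43. Their tail-to-tail genes were TMEM131 at 16.5 kb, TIGAR at 13.6 kb and ATF5 at 15.05 kb.

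No test was made of level against distance, since the level had been used to choose the members. Over the 63 members with a tail-to-tail gene within 50 kb, log10 distance and log2 CPM had a Pearson r of 0.11 and a Spearman rho of 0.075, across genes measured in the same libraries. Without such a gene within 50 kb were 4 members: CREB5, NSUN4, RAMACL and ENSG00000285804, the last of which has an exon overlapping the span of MAP1B. CREB5, a transcription factor of the CREB family, had 0 to 3 counts in mock and 6 to 10 (median 8) after arsenite, with TRIL as its tail-to-tail gene at 127 kb and JAZF1 head to head at 119 kb. NSUN4, a mitochondrial RNA methyltransferase, had 0 to 2 counts and 4 to 10 (median 7). The thresholds bound the counts of these 4 members as of all others, so nothing is read from their likeness.

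Rows that were not members but lay in the same position were tested independently of the choice. Among tested rows with no exon overlapping the span of an opposite-strand protein-coding gene, 1831 had a tail-to-tail gene within 10 kb. Of these, 43.5% were called higher after arsenite (edgeR quasi-likelihood test, Benjamini-Hochberg adjusted p under 0.05), against the 19.4% of all tested rows given above. The 19.4% also covers members and rows with such overlap, so the sets are unlike. The median log2 fold change of the 1831 rows was 0.37, against -0.01 over all tested rows. The share called higher was 42.8% within 2 kb, 42.4% from 2 to 5 kb and 46.3% from 5 to 10 kb. It was 30.1% from 10 to 20 kb, 14.4% from 20 to 50 kb, 8.71% from 50 to 100 kb and 6.59% beyond 100 kb. The other arrangements within 10 kb gave 29.3% head to head, 27.1% with a same-strand gene upstream and 20.8% with one downstream. Without the filter on low counts the tail-to-tail share was 20.9% of 4272 rows, beside 6.80% of all 38431 rows then tested. The differences between these shares were not tested.

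**Figure D3:**
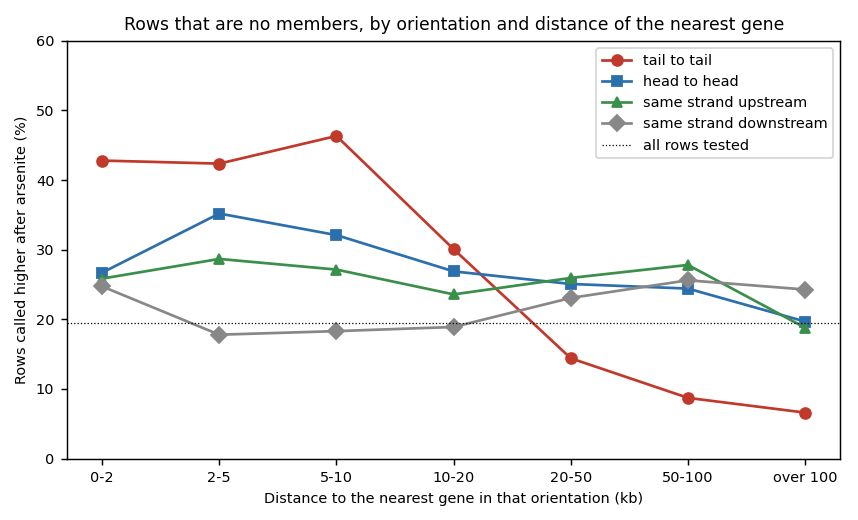
Share of tested rows that are no members and were called higher after arsenite (vertical axis, %), by distance of the nearest protein-coding gene (horizontal axis, kb) in 4 arrangements, with the share over all tested rows dotted. The tail-to-tail line starts at 42.8% and falls to 6.59% beyond 100 kb, and the other lines stay between 17.8% and 35.2%.

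Rows annotated inside the neighbouring genes were then set beside the members past the ends of those genes. Inside the tail-to-tail genes, 29 rows were annotated on the member's strand, so they read the same strand as the member. That strand is opposite to the neighbouring gene's own annotation. With the strand of the counts not given, these rows need not stand for that gene's RNA. The model tested 22 of these. It called 7 lower after arsenite and 2 higher, with a median log2 fold change of -0.32. That is 31.8% lower and 9.09% higher, beside 18.6% and 19.4% of all tested rows. The 2 called higher were ENSG00000258430 inside AKT1, from a mock sum of 1859 to 2201, and B4GALT3 inside PPOX, from 100 to 157.

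At CCDC68, the pseudogene MAP1LC3P inside the gene fell from a sum of 43 counts in mock to 10 after arsenite, by 2.10 on the log2 scale (SE 0.49, edgeR adjusted p = 0.000241). The member RAB27B, a GTPase of vesicle secretion, lies 5.99 kb past the end of the same gene and had 0, 0, 1, 3, 1 and 0 counts in mock and 11, 6, 7, 12, 9 and 8 after arsenite. At TRIM27, the U6 pseudogene RNU6-930P inside the gene fell from 50 to 11, by 2.20 on the log2 scale (SE 0.48, edgeR adjusted p = 8.6e-05), and HCG14 past its end went from 6 to 76. At DBNL, PGAM2 inside the gene fell from 646 to 524, by 0.35 on the log2 scale (SE 0.10, edgeR adjusted p = 0.00156), and POLM past its end went from 10 to 64. At PPAT, ENSG00000283156 inside fell from 224 to 140, by 0.74 on the log2 scale (SE 0.16, edgeR adjusted p = 0.000132), and ENSG00000269921 past the end went from 6 to 60. A second tested row inside PPAT, ENSG00000270147, was at 664 in mock and 728 after arsenite (log2 fold change 0.05, edgeR adjusted p = 0.665). These genes were singled out after their values were seen, for a row inside that fell, and the higher arsenite sum of the member in each pair is fixed by the choice of members. The values are therefore a description of these places, with nothing tested between the row inside and the member.

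**Figure D4:**
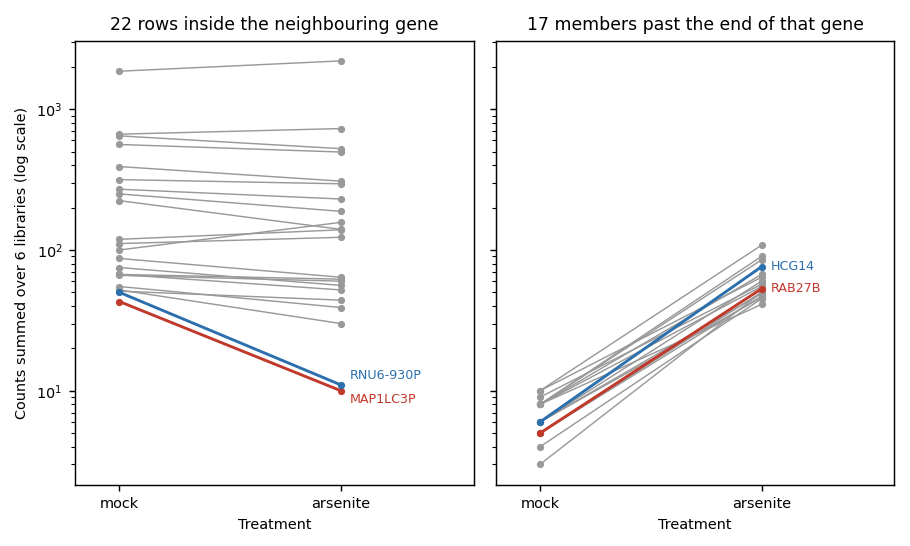
Counts summed over the 6 mock and the 6 arsenite libraries (vertical axis, log scale), for 22 tested rows inside the neighbouring genes (left) and the 17 members past the ends of those genes (right), each line being 1 row. Most lines on the left are level or fall, with MAP1LC3P and RNU6-930P falling most, and the lines on the right rise by the way members were chosen.

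The neighbours' own rows showed no common direction. Of 62 tail-to-tail genes within 50 kb, 35 had rows that passed the filter, and 10 were called higher and 6 lower, with a median log2 fold change of 0.18. Of the nearest same-strand genes upstream, 65 in all, 20 passed, with 6 called higher and 3 lower. Together 16 of 55 neighbouring rows were called higher (29.1%), beside 19.4% of all tested rows.

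The lowest fold change among the 35 was at PEPD, whose row fell from 348 to 76, by 2.26 on the log2 scale (SE 0.18, edgeR adjusted p = 3.55e-21), beside CEBPG. GLA, a lysosomal galactosidase, fell from 171 to 66, by 1.44 on the log2 scale. Its member RPL36A-HNRNPH2, a fusion of adjacent genes whose exons belong also to those genes and whose span encloses GLA, went from 3 to 47. The highest was at ARHGAP1, a GTPase-activating protein, which rose from 44 to 202 (log2 fold change 2.12, edgeR adjusted p = 4.88e-13), beside the autophagy gene ATG13, which went from 10 to 40. AKT1, the kinase beside ADSS1, rose from 436 to 589, by 0.37 on the log2 scale.

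All 77 members had a higher arsenite than mock sum in each of the 3 lines. The thresholds bound sums over the lines and do not fix this for each line. They favour it by the low mock sums, so no agreement is read from it. The summed level of the 77 rows after arsenite was 631 and 607 CPM in the NES libraries, 556 and 527 in NLS, and 537 and 521 in G3BP1. In mock it was 60.5 to 77.3 CPM over all 6 libraries. Both NES libraries thus held the most, and NLS and G3BP1 overlapped. NES was the highest line in 36 members, NLS in 22 and G3BP1 in 19, and G3BP1 was the lowest in 31, NLS in 28 and NES in 18.

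The order of the members was only loosely shared, by lines as by replicates. Across the 77 members, log2 levels after arsenite correlated at r = 0.41 for NES with NLS. The value was 0.33 for G3BP1 with NES and 0.20 for G3BP1 with NLS. Replicate libraries of the same line correlated at 0.43 in NES, 0.38 in NLS and 0.38 in G3BP1. These are correlations across genes of similar low count, and members were chosen within a narrow range of sums. The median spread between the highest and lowest line mean was 0.82 on the log2 scale, from 0.07 to 1.998.

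**Figure D5:**
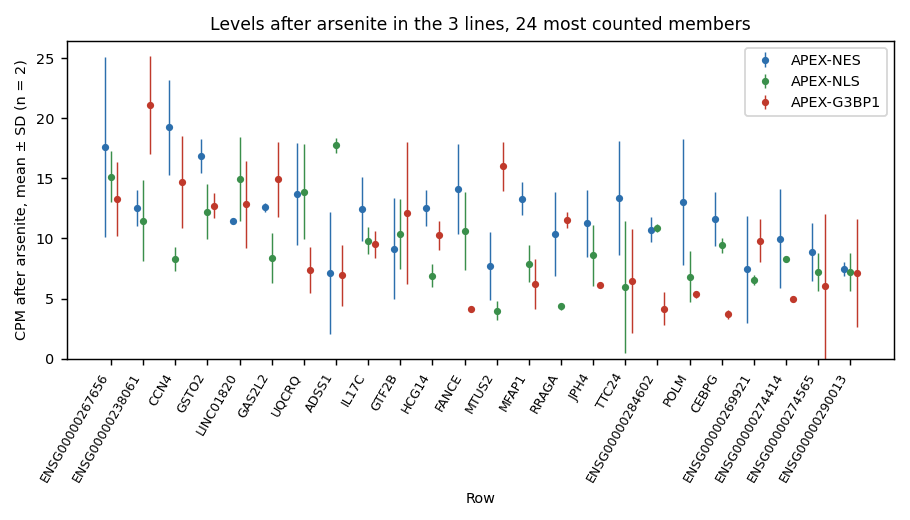
CPM after arsenite (vertical axis, mean ± SD, n = 2 libraries per line) in the APEX-NES, APEX-NLS and APEX-G3BP1 lines for the 24 members with the highest mean level (horizontal axis); an error bar that would pass below 0 is drawn to 0. MTUS2 is highest in G3BP1, ADSS1 in NLS, and FANCE and CEBPG are lowest in G3BP1.

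How the arsenite counts split among lines was not used in choosing the members and could be tested in those that passed the filter. That filter works by group, and these members passed it through their arsenite libraries. It may therefore favour members whose counts are uneven among the arsenite groups. The number called among the members that passed is thus not a share for all members. The joint test over the 3 arsenite groups (edgeR quasi-likelihood F test, adjusted over 13108 rows) called 3 of the 37 members that passed the filter, and 21.3% of all tested rows. At an unadjusted p under 0.05 there were 10 members. Without the filter on low counts, edgeR called 3 of 77 members at an adjusted p under 0.05. DESeq2 called none of the 37, and 1155 of all 13108 tested rows, fewer than edgeR did. It had 1 member at an unadjusted p under 0.05. For the unadjusted threshold no share over all rows is given here, so nothing is read from those counts.

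MTUS2, a microtubule-associated protein (chr13:28820348-29505947, plus strand), had mock counts of 0 and 0 (NES), 1 and 0 (NLS) and 3 and 4 (G3BP1). Its counts after arsenite were 8 and 11 (NES), 6 and 5 (NLS) and 17 and 22 (G3BP1). The G3BP1 line was highest under both treatments, and its arsenite libraries did not overlap the other lines. Relative to the mean of NES and NLS, the MTUS2 level after arsenite in G3BP1 was higher by 1.53 on the log2 scale (SE 0.41). The joint edgeR adjusted p was 0.00466. The lines' means spanned 1.998 on the log2 scale. MTUS2 lies 3.46 kb from the end of SLC7A1, a transporter of cationic amino acids.

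ADSS1, the muscle isozyme of adenylosuccinate synthase (chr14:104724186-104747325, plus strand), had 1 or 2 counts in each mock library. After arsenite it had 15 and 4 (NES), 24 and 25 (NLS) and 6 and 11 (G3BP1). Both NLS libraries were above the other 4, and the NES replicates were far apart. NLS exceeded NES by 1.24 on the log2 scale (SE 0.43), with a joint edgeR adjusted p = 0.0154. FANCE, a subunit of the Fanconi anaemia core complex (chr6:35452356-35467103, plus strand), had mock counts of 2, 0, 0, 3, 0 and 0. Its arsenite counts were 16 and 19 (NES), 17 and 12 (NLS) and 5 and 5 (G3BP1), so G3BP1 was lowest. G3BP1 was below the mean of NES and NLS, with a log2 fold change of -1.53 (SE 0.50) and a joint edgeR adjusted p = 0.0344. Their tail-to-tail genes were AKT1 at 22.0 kb and TEAD3, a partner of YAP, at 6.49 kb. On their own strand genes lay nearer: INF2 ended 1.65 kb upstream of ADSS1 and SIVA1 started 5.78 kb downstream, and RPL10A started 1.31 kb downstream of FANCE.

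These 3 calls rest on few libraries. Leaving out 1 arsenite library, G3BP1 replicate 1, G3BP1 replicate 2 or NLS replicate 2, left 1 member called, and leaving out both libraries with high 18S counts left none of the 58 members then tested. MTUS2 lost its call without G3BP1 arsenite replicate 2 (edgeR adjusted p = 0.128) or NLS arsenite replicate 2 (0.0522). ADSS1 lost it without either NLS arsenite library (0.150 and 0.126) or G3BP1 arsenite replicate 1 (0.0567). FANCE lost it without either G3BP1 arsenite library (0.157 and 0.213), NES arsenite replicate 2 (0.178) or NLS arsenite replicate 1 (0.0627). The test of whether the arsenite effect itself differed among lines called none of the 37 members with edgeR (2 at an unadjusted p under 0.05, smallest adjusted p = 0.538) and none with DESeq2 (1 at an unadjusted p under 0.05). Over all rows that edgeR test called 0.183%, and the DESeq2 test called 0 of 13108. With mock counts near 0, the test is imprecise for these rows.

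CEBPG and RRAGA had spreads of 1.65 and 1.41 on the log2 scale and did not pass (edgeR adjusted p = 0.0753 and 0.0958). In CEBPG both G3BP1 libraries were below the other 4, at 3.70 ± 0.377 CPM (SD, n = 2) against 11.6 ± 2.26 in NES and 9.43 ± 0.600 in NLS. In RRAGA it was NLS that was lowest, at 4.35 ± 0.277 CPM against 10.4 ± 3.50 in NES and 11.5 ± 0.642 in G3BP1.

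Rows named for the stress genes that arsenite is known for were not among the members. The strand of these counts is not given, so they do not show whether the messenger RNAs of those genes responded. No member was on the lists of 16 immediate early, 16 heat shock, 16 metal and oxidant response or 14 integrated stress response genes. Among the immediate early genes 4 passed the filter, and JUN, JUNB and IER2 were called higher. JUN, a subunit of AP-1, rose from 12 to 78 by 2.54 on the log2 scale (SE 0.40, edgeR adjusted p = 1.06e-07), and so exceeded the mock limit of the members by 2 counts. IER2 rose from 20 to 100.

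Of the heat shock genes 4 passed, and the chaperone genes HSPD1, DNAJA1 and DNAJB1 were called higher. Of the rows of metal and oxidant response genes 2 passed and neither was called. With the strand uncertain, that does not show whether those messenger RNAs changed. SLC7A11, the cystine transporter, went from 1 to 25 counts and stayed below the arsenite threshold. Of the integrated stress response genes 6 passed, and ATF4 and HSPA5 were called higher, ATF4 from 29 to 118. None of the listed genes was called lower. Within 10 kb of a listed gene there was 1 member, TULP2 beside PPP1R15A, whose own row went from 3 to 15.

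The thresholds cut through a continuous range. Just inside the arsenite threshold were ATG13, ENSG00000277287 and ENSG00000287035 with a sum of 40, and just outside were BEST2, GSTM2P1 and MRPL38 with 39. An arsenite sum of 40 was shared by 7 members, and 4 rows missed by a single count. On the mock side GSTO2, CCN4 and POLM had a sum of 10, as did 13 members in all, and 14 rows with at least 40 arsenite counts missed by a single count. Of those, OTULIN had 11 counts in mock and 101 after arsenite, PTH1R 11 and 84, and ENSG00000256609 11 and 83. The reverse pattern was met by AREL1, from 130 to 2, by ENSG00000260179, from 44 to 4, by ENSG00000286362, from 41 to 9, and by MAP1LC3P, from 43 to 10. MAP1LC3P is the row inside CCDC68 described above.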

How the data were processed

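Gene counts of 12 RNA-seq libraries (3 lines, 2 treatments, 2 libraries each) were analysed as deposited by the authors: whole-number counts per gene, not normalised. Per the submitters' processing notes, Trim Galore, Subread, featureCounts, edgeR and GRCh38.p13 were used; the strand setting is not given in the sources used here. Of the 16 columns, 4 matched no sample and were not used.

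The members and gene lists were chosen with earlier results of these data known, and the analyses of position after values were seen. Rows were matched by name to GENCODE release 29 (GRCh38), which holds 56969 of the 61255 rows; 20930 rows carry an Ensembl identifier only. Distances run from any exon of a row to the nearest protein-coding gene lying wholly to that side of the exon, so a gene within an intron counts.

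edgeR 4.0.16 (R 4.3.3) was run on all 12 libraries with TMM scaling and its default filter by group (13108 rows), with quasi-likelihood tests at a Benjamini-Hochberg adjusted p under 0.05. Treatment was fitted beside line, and differences among lines with 1 mean per group. DESeq2 1.42.0 was an alternative. The fits were tested on simulated data. CPM are TMM-scaled, with SD over libraries. Counting floors (3 counts) cover counting error only. Named rows were the 24 members highest by mean CPM after arsenite, members called among lines, rows at the thresholds and listed genes, plus those said to be picked later. Replicate numbers did not pair the libraries: of 15 pairs of groups, 1 had deviations correlated above 0.1 (range -0.060 to 0.30).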

Additional observations from a re-analysis of the deposited data

Results flagged for a closer look

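The 3 members MTUS2, ADSS1 and FANCE differed among the lines after arsenite by a test of the difference itself (edgeR quasi-likelihood F test over the 3 arsenite groups). MTUS2 had line means spanning 2.0 on the log2 scale and was highest in G3BP1. ADSS1 spanned 1.36 and was highest in NLS. FANCE spanned 1.77 and was lowest in G3BP1. DESeq2 called none of the 3, with adjusted p = 0.224, 0.410 and 0.422, and called 1155 of all 13108 tested rows.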

How the results depend on the processing

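The number of members depends on the thresholds: a mock sum of 5 or less gave 24 members, an arsenite sum of 60 or more gave 22, scaled counts gave 63, and leaving out 1 library gave 67 to 86. Members called different among lines numbered 3 with edgeR and 0 with DESeq2. Over all 13108 tested rows edgeR called 21.3% and DESeq2 called 1155. The number of members called was 1 to 4 without 1 library and 0 without both libraries high in 18S rows, an alternative added after seeing the data. The cause was not tested. Without any 1 library, the adjusted p for lines was 0.00477 to 0.128 in MTUS2, 0.00548 to 0.150 in ADSS1 and 0.0308 to 0.213 in FANCE. Without the filter on low counts, 20.93% of non-member rows in the tail-to-tail position were called higher against 43.53%, with 4272 rather than 1831 such rows, beside 6.80% of all rows without the filter and 19.4% with it; leaving out 1 library gave 38.43% to 40.83%. The arsenite effect was called in 4986 rows, 3662 with DESeq2 and 4681 to 4972 without 1 library. Among called rows 51.0% were higher with TMM scaling and 43.2% with total counts, and the median of all rows moved from -0.01 to -0.06. With a replicate block, 4983 rows, 3 members and 43.31% of the position's rows were called. The block changed none of these 3 results by more than 1.5 times, and replicate numbers did not pair the libraries within a line. In the 24 members named by level, the mean CPM moved by less than 1 SD under the other 2 scalings. At this depth a row under 3 counts in a library is not told from absence.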
